A study of Mus musculus with 13 samples.

Results

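Open chromatin was described around 9 genes that carry and read the Hedgehog signal, Gli1, Gli2, Gli3, Ptch1, Smo, Hhip, Sufu, Boc and Cdon, in limb and forebrain of mouse embryos at E12.5. A region, that is an interval of enriched ATAC-seq signal called in a library, belonged to one of these genes when its strongest summit lay within 100 kb of the gene body (GENCODE M21, mm10). This gave 3184 of the 1292424 different regions of 13 libraries. Joined by overlap over the 12 libraries that were compared, they formed 480 of 252026 consensus regions, of which 89 of 27032 were called in all 12 libraries and could be tested for a difference in height. The 9 genes have no common position in the genome, and several other genes start within their windows, so a region near a gene is not thereby shown to act on it.

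The libraries came from 50000 cells each, by ATAC-seq, in which the Tn5 transposase inserts adapters into accessible DNA. Wild-type embryos (wt) and embryos homozygous for allele 542, in which a copy of the distal limb enhancer II1 with a reporter gene was placed in the telomeric domain of the HoxD locus on chromosome 2, were on the same B6CBAF1 background. The forebrain (FB) and 2 portions of the forelimb, a distal one (DFL) and a proximal one (PFL), were dissected, with 2 replicates in each of the 6 groups, each from its own pool of embryos. An earlier wt DFL sample was processed again by the authors and is given only where it is named. Each library averages over every cell type of its tissue, and a larger share of cells with an open region cannot be told apart from a more open region in the same cells.

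In the Hedgehog pathway a secreted ligand, Shh in the limb bud and in the ventral forebrain, binds the receptor Ptch1, which in the absence of ligand holds the membrane protein Smo inactive. Boc and Cdon are cell surface co-receptors that help ligand binding, and Hhip binds ligand and limits its range. Once Smo is active, the transcription factors Gli2 and Gli3 are released from Sufu and from processing into repressors, and Gli1, Ptch1 and Hhip are themselves transcribed in response. Gli3 acts in the limb bud mainly as a repressor that is countered by Shh on the posterior side.

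The depth, estimated from the background of each library, was 37.5 to 70.7 M tags (a tag is 1 read end, M is mega) in the 12 libraries and 78.0 M in the earlier sample, with FB libraries among the deepest. The labelled tissues were set against start sites of marker genes. At Hoxa13, a gene of the distal limb, the fold was 8.80 and 9.34 in wt DFL and 10.1 and 8.91 in 542 DFL against 4.56 and 6.34 in wt PFL and 4.75 and 6.38 in 542 PFL, and only 1 of the 4 FB libraries had a region there. Six3, a forebrain gene, had a start-site region in 4 of 4 FB libraries and in none of the limb libraries. The folds at Lhx2, Dlx1 and Neurog2, also listed for forebrain, were not lower in limb, as at Dlx1 with 12.52 and 13.5 in wt DFL and 8.33 and 10.9 in 542 DFL against 7.24 and 6.43 in wt FB and 6.45 and 7.91 in 542 FB, so that fold at a start site does not order these tissues by all of their marker genes. The limb mesenchyme marker Prrx1 did not follow the labels either, with folds of 4.89 and 5.55 in wt DFL and 5.58 and 5.49 in 542 DFL, 3.72 and 4.39 in wt PFL and 4.56 and 6.52 in 542 PFL, and 7.29 and 6.36 in wt FB and 7.36 and 7.98 in 542 FB, so that 3 of the 4 FB libraries lay above every limb library, and neither limb tissue passed the test against FB (adjusted p = 0.191 for DFL and adjusted p = 0.0556 for PFL, limma). Meis1, a proximal limb marker, had folds of 6.54 and 7.43 in wt DFL and 9.25 and 6.59 in 542 DFL and 8.09 and 8.10 in wt PFL and 10.1 and 9.75 in 542 PFL, a difference that did not pass (adjusted p = 0.103), and of 10.5 and 10.1 in wt FB and 9.76 and 9.52 in 542 FB. Markers of other cells were thin. Gata1 had no start-site region, Cdh5 had one in 1 FB library and Tie1 in 1 DFL and 1 PFL library, Krt5 in 1 PFL library, Trp63 in 3 DFL, 3 PFL and no FB libraries, and Myf5, a muscle gene, in 2 DFL, 4 PFL and no FB libraries. Start-site regions of Myod1 and Pax3 were called in every library. The part of these cells in the results was not tested.

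The DNA word TGGGTGGTC, which GLI proteins are known to bind, was looked for on both strands in the 300 bases centred on the strongest summit of each region. It was present in 5 of the 480 regions near the 9 genes, that is 1.04%, and in 0.309% of all 252026 regions. With the eighth base free, as TGGGTGGNC, which includes every match of the first word, 11 of the 480 (2.29%) and 1.28% of all regions held a match. A match is a description of the letters, and 5 regions are few. The matches of 6 of those 11 regions are given, ranked highest by mean fold over the 12 libraries with a library without the region counted as 0. They are on the plus strand of GRCm38, with 10 bases on either side and the word or its reverse complement in capitals. They show the word where it lies near a strongest summit. Bases outside the 300 were not searched, so the regions may carry the word elsewhere too.
Ptch1 start site, chr13:63573455-63573483: gccctcggcgTGGGTGGTCtgccgcgcca
Ptch1 second start site, chr13:63566425-63566453: aaagtagagaGACCACCCAggtaggcaac
Smo upstream region, chr6:29719063-29719091: ctctaccacaTGGGTGGTCcccaccatgt
Boc intron, chr16:44552146-44552174: tattgtccaaGACCACCCActggaaatag
Kif5a start site near Gli1, chr10:127263207-127263235: tccgaactgcGACCACCCAaaggtggagt
Cdon upstream region (free base), chr9:35360774-35360802: ccttctcggtTGGGTGGCCcagggactcc

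The match at Ptch1 lay under the summit of the gene's own start-site region, and the second Ptch1 match in the region over a further annotated start 7.20 kb into the gene. The start-site regions of Gli1, Gli2, Gli3, Smo, Hhip, Sufu, Boc and Cdon had no such match in this window. The Kif5a region, which lies in the window of Gli1 because the genes are close neighbours, was weak and was called in 8 of the 12 libraries.

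The regions over the start sites of the 9 genes were called in all 12 libraries. Height is given as fold, the deposited ratio of tags under the summit to the local background of the same library, and was compared between libraries as log2 fold centred on each library's median, with limma and an adjustment over all 27032 regions called in all 12 libraries. Cdon and Smo had among the tallest start sites of the group, with a mean fold over the 4 libraries of a tissue of 14.6 ± 0.722 (SD, n = 4) in DFL, 13.9 ± 0.955 (SD, n = 4) in PFL and 14.6 ± 0.590 (SD, n = 4) in FB for Cdon. Ptch1 had the lowest, 5.48 ± 0.544 (SD, n = 4) in DFL, 4.77 ± 0.686 (SD, n = 4) in PFL and 4.67 ± 0.314 (SD, n = 4) in FB. Fold depends on the local background, so the order of genes is a description of these values.

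**Figure D1:**
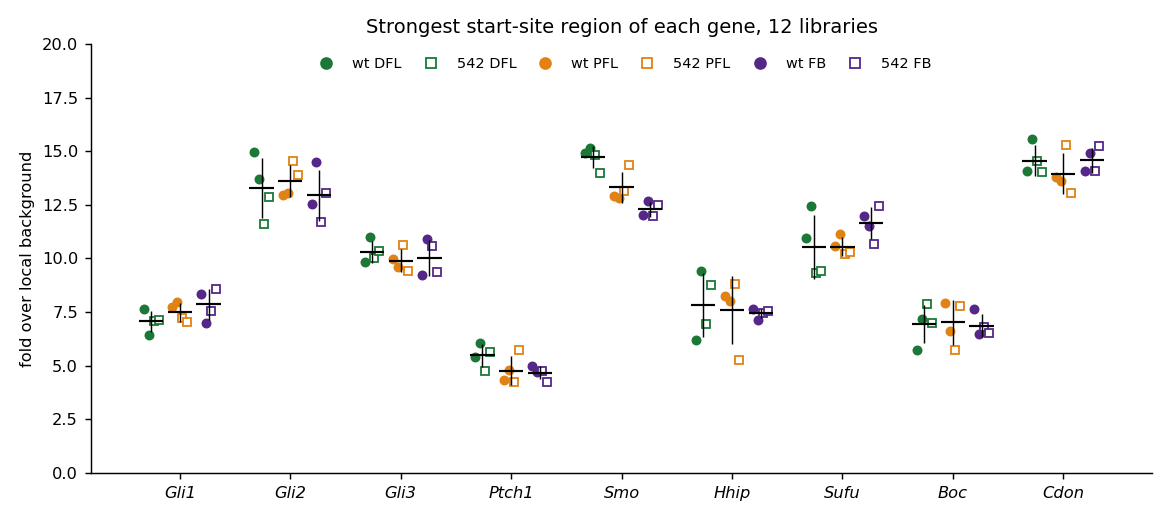
Fold over local background of the strongest start-site region of each of the 9 genes (x axis) in the 12 libraries, with filled circles for wt and open squares for 542, black lines for the mean and bars for the SD of the 4 libraries of a tissue. At Smo each DFL value (14.0 or more) lies above each FB value (12.7 or less), and at the other 8 genes DFL and FB overlap.

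Smo, the membrane protein that passes the signal on, had the start site that differed from FB in both limb tissues. Its fold was 14.9 and 15.1 in wt DFL and 14.8 and 14.0 in 542 DFL, 12.9 and 12.8 in wt PFL and 13.1 and 14.3 in 542 PFL, and 12.0 and 12.7 in wt FB and 12.0 and 12.51 in 542 FB. The DFL and PFL libraries lay above all FB libraries. The centred log2 difference was 0.40 ± 0.07 (SE) between DFL and FB (adjusted p = 0.000672) and 0.32 ± 0.07 (SE) between PFL and FB (adjusted p = 0.00313), although the second was lost without centring (adjusted p = 0.167). Tags at the summit per M tags of the library (tags per M) were likewise higher in limb, 5.54 ± 0.653 (SD, n = 4) in DFL and 5.03 ± 0.363 in PFL against 3.78 ± 0.324 in FB. The region spans chr6:29735203-29736676.

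Gli2 has several annotated starts, and its tallest start-site region, chr1:118981741-118983279, lies over an internal one, 71.0 kb from the first. It was higher in PFL than in FB, by 0.29 ± 0.08 (SE) (adjusted p = 0.0104), a call lost without centring (adjusted p = 0.44) and without wt FB replicate 1 (adjusted p = 0.0597). The uncentred folds overlapped, from 12.9 to 14.5 in PFL and from 11.7 to 14.5 in FB. At the start sites of Gli1, Gli3, Ptch1, Hhip, Sufu, Boc and Cdon no tissue difference passed the threshold. For Ptch1 the difference between DFL and FB was 0.37 ± 0.15 (SE) (adjusted p = 0.0786), and for Hhip 0.20 ± 0.16 (SE) (adjusted p = 0.377). Mean tags per M at these summits went the other way. At Ptch1 they were 1.14 ± 0.164 (SD) in DFL and 1.57 ± 0.0536 (SD) in FB. Every FB library lay above every DFL library there. At Hhip they were 1.77 ± 0.419 (SD) in DFL and 2.25 ± 0.152 (SD) in FB, with overlap. The tags were not tested. Between DFL and PFL none of the 9 start sites passed, with differences from -0.15 at Gli1 to 0.14 at Ptch1.

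The other genes of the pathway, 52 in lists of ligands, reception, cilium and transduction, Gli processing and Hedgehog-responsive genes, were read in the same way at their start sites, where 41 could be tested. Higher in DFL than FB were 6 of the 41 and lower 2, with a median difference of 0.05, higher in PFL than FB were 10 and lower 2, with a median of 0.08, and between DFL and PFL 1 differed. Of all regions over a start site 14.3% were higher and 9.38% lower in DFL than FB, 21.8% were higher and 7.15% lower in PFL than FB, and 0.996% were higher and 2.32% lower in DFL than PFL, so that the counts of the pathway genes are close to what start sites in general gave. Gas1, a co-receptor like Boc and Cdon, was higher in DFL by 0.52 ± 0.10 (SE; adjusted p = 0.000920) and in PFL by 0.43 ± 0.10 (SE; adjusted p = 0.00344). Disp1, which releases ligand from the cells that make it, was lower in DFL than FB, with a difference of -0.45 ± 0.09 (SE; adjusted p = 0.00132). Hand2, a limb transcription factor linked to Shh, was higher in DFL by 0.61 ± 0.15 (SE; adjusted p = 0.00722), and Hhat, which attaches a lipid to the ligand, was the gene that was lower in DFL than in PFL. The Shh start site itself could not be tested, since it was called in 3 DFL, 1 PFL and 4 FB libraries, at a fold of 4.02 to 6.06 in FB.

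Tissue differences were read over all regions next. Of the 89 regions called in all 12 libraries, 20 were higher in DFL than in FB, against 19.2% of all regions tested, and 14 were higher in FB, against 13.8% of all. For PFL, 26 were higher than in FB, against 22.9% of all, and 13 lower, against 13.6%. These counts are near the shares over the genome, and the median difference of the 89 was 0.04 against 0.01 over all regions for DFL and 0.12 against 0.06 for PFL. Without centring, which lowers all limb values against FB, the split turned to 11 higher and 26 lower for DFL and to 14 higher and 26 lower for PFL, with the median of all regions at -0.13 and -0.16. Of the 34 DFL calls 19 and of the 39 PFL calls 22 were past the threshold in every alternative fit, and 1 of the 39, the Dctn2 start site near Gli1, changed sign without centring. The DFL and PFL comparisons share the same FB libraries. Of the 35 regions over a start site, of these or neighbouring genes, 7 were higher and 2 lower in DFL than FB, and of the 54 others 13 were higher and 12 lower. Over all regions fitted, 14.3% of those over a start site were higher and 9.38% lower, against 23.96% and 18.1% of the others, so that the members' split by place lies near the background.

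**Figure D2:**
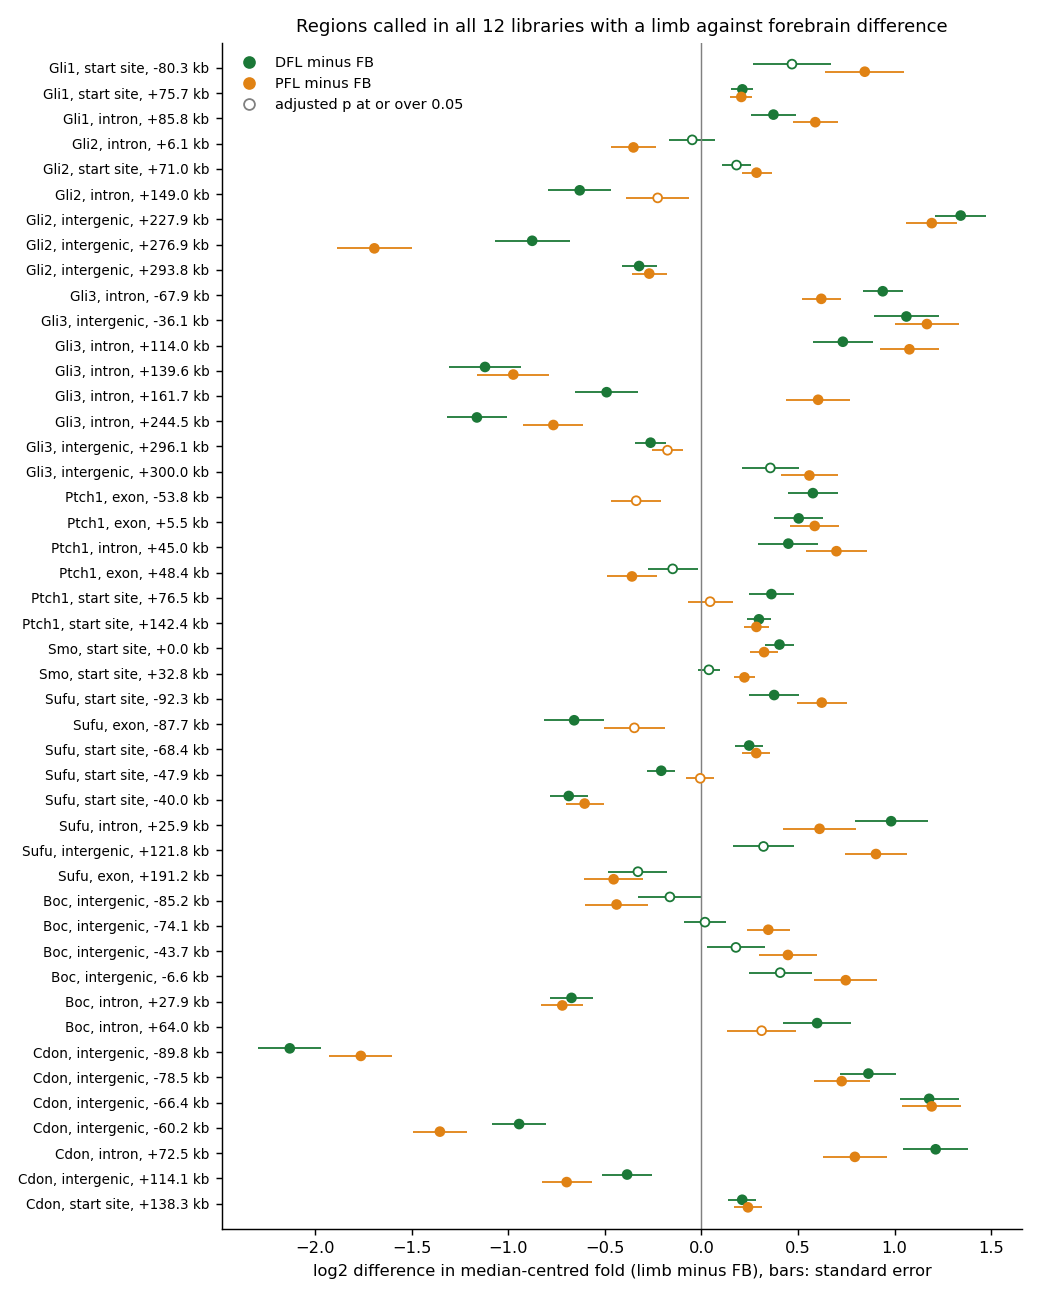
Centred log2 difference in fold between limb and FB (x axis; green DFL minus FB, orange PFL minus FB, bars are standard errors from limma, open symbols did not pass the threshold) for the 46 regions with an adjusted p under 0.05 in either comparison, named by gene, annotation and distance in kb of the summit from the gene's first start along transcription. The Cdon locus holds the lowest value, -2.13, and values above 1 stand at the Gli2, Gli3 and Cdon loci.

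The Cdon locus held regions taller in the brain and regions taller in the limb upstream of the gene, and a region taller in the limb within it. The intergenic region chr9:35331093-35331781, 89.8 kb upstream, had a fold of 10.8 and 12.8 in wt FB and 13.6 and 13.4 in 542 FB. In limb it was 2.69 and 2.15 in wt DFL and 3.33 and 2.37 in 542 DFL, and 3.27 and 3.04 in wt PFL and 3.91 and 2.71 in 542 PFL. FB thus lay above every limb library, by a difference of -2.13 ± 0.16 (SE) for DFL minus FB (adjusted p = 5.49e-07) and -1.76 ± 0.16 (SE) for PFL minus FB (adjusted p = 2.34e-06). Tags per M at the summit were 4.68 ± 0.785 in FB (SD, n = 4), 1.45 ± 0.250 in DFL and 1.18 ± 0.177 in PFL. The earlier wt DFL sample had a fold of 5.15, below every FB library. Its tags per M were 3.95, above the 3.78 of wt FB replicate 1, so by tags it reached the range of FB.

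A second FB region, chr9:35359702-35361123, is the one with the GLI word with a free base shown above, 60.2 kb upstream of Cdon. Its fold was 8.77 and 8.97 in wt FB and 7.56 and 8.13 in 542 FB, against 3.26 to 4.96 in DFL and 2.44 to 3.47 in PFL, with no overlap. The difference was -0.94 ± 0.14 (SE) for DFL minus FB (adjusted p = 0.000154) and -1.35 ± 0.14 (SE) for PFL minus FB (adjusted p = 6.65e-06). Between these regions, chr9:35354480-35355235 at 66.4 kb upstream went the other way. It had a fold of 11.3 to 16.2 in DFL, 12.0 to 14.3 in PFL and 4.40 to 8.86 in FB, a difference of 1.18 ± 0.15 (SE) (adjusted p = 4.40e-05) and 1.19 ± 0.15 (SE) (adjusted p = 3.98e-05). Within an intron, 72.5 kb into the gene, chr9:35493418-35494036 was higher in DFL by 1.21 ± 0.17 (SE) (adjusted p = 7.50e-05).

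At Gli2, 2 regions beyond the 3′ end of the gene differed in opposite directions. At chr1:118825057-118826224, 228 kb from the first start, the fold was 10.5 and 10.02 in wt DFL and 10.5 and 12.3 in 542 DFL, 9.25 and 9.89 in wt PFL and 8.32 and 9.73 in 542 PFL, and 5.48 and 5.82 in wt FB and 3.43 and 4.46 in 542 FB. All limb libraries lay above all FB libraries, with a difference of 1.34 ± 0.13 (SE) in DFL (adjusted p = 3.86e-06) and 1.19 ± 0.13 (SE) in PFL (adjusted p = 1.08e-05). Tags per M at this summit were 7.34 ± 0.726 in DFL, 4.85 ± 0.550 in PFL and 0.611 ± 0.0968 in FB (SD, n = 4). Farther from Gli2, at chr1:118776448-118777344, the order was FB, then DFL, then PFL.

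That farther region had a fold of 13.5 and 14.3 in wt FB and 14.0 and 13.6 in 542 FB, of 6.12 and 9.45 in wt DFL and 5.34 and 7.01 in 542 DFL, and of 2.86 and 3.62 in wt PFL and 3.32 and 5.43 in 542 PFL. PFL minus FB was -1.69 ± 0.19 (SE) (adjusted p = 1.55e-05) and DFL minus FB -0.88 ± 0.19 (SE) (adjusted p = 0.00318), the latter lost when percentiles within a library replaced log2 fold (adjusted p = 0.154). It was also 1 of the 2 regions higher in DFL than PFL, by 0.82 ± 0.19 (SE) (adjusted p = 0.0216), though the lowest DFL value lay below the highest PFL value and the call was lost without wt DFL replicate 2 (adjusted p = 0.0919), 542 DFL replicate 2 (0.0676), wt PFL replicate 1 (0.0788) or 542 PFL replicate 1 (0.0649).

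Gli3 had the most regions, 100, with 11 called in all 12 libraries. Among the tested ones were regions taller in limb and regions taller in FB. The tallest in DFL was chr13:15394965-15396197, 67.9 kb upstream in an intron of the transcript Gm20043, with 15.4 and 13.2 in wt DFL and 15.7 and 16.0 in 542 DFL, 11.1 and 10.2 in wt PFL and 10.98 and 14.2 in 542 PFL, and 8.50 and 7.80 in wt FB and 9.004 and 9.54 in 542 FB. Every limb library was above every FB library, with a difference of 0.94 ± 0.10 (SE) in DFL (adjusted p = 9.78e-06) and 0.62 ± 0.10 (SE) in PFL (adjusted p = 0.000329). An intronic region 114 kb into the gene, chr13:15576656-15577997, was higher in PFL than FB by 1.08 ± 0.15 (SE) (adjusted p = 0.000103).

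In FB, the intronic region chr13:15707030-15708388, 244 kb into the gene, was taller. It had a fold of 8.41 to 9.62 in FB, 3.01 to 4.51 in DFL and 3.78 to 6.12 in PFL. The difference was -1.16 ± 0.16 (SE) for DFL minus FB (adjusted p = 6.14e-05). Tags per M were 2.52 ± 0.233 in FB against 0.577 ± 0.143 in DFL (SD, n = 4). The tallest region 3′ of Gli3, 296 kb from the start, was high in every tissue, 14.8 to 17.3 in FB and 11.2 to 13.4 in DFL. It was lower in DFL than FB, by -0.26 ± 0.08 (SE) (adjusted p = 0.022), a call past the threshold in 13 of 17 alternatives.

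**Figure D3:**
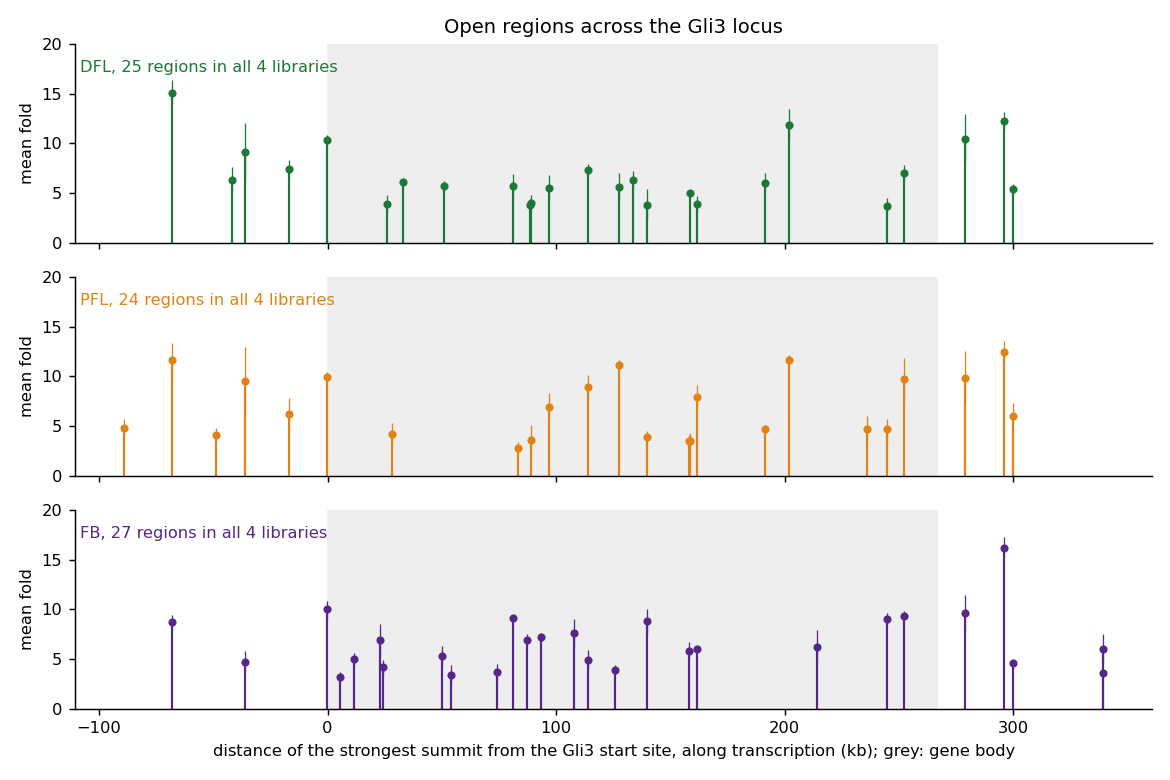
Mean fold over the 4 libraries of a tissue (y axis; bars are SD) for the regions near Gli3 called in all 4 of its libraries, against distance of the summit from the Gli3 start along transcription in kb, in 3 panels for DFL, PFL and FB. The start-site region is near 10 in each tissue, and the region at 202 kb stands in DFL and PFL (11.9 and 11.6) but not in the FB panel.

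At the Ptch1 locus 5 of the 9 regions called in all 12 libraries were higher in DFL than in FB and none was lower. Of these calls, those at 63497121 and 63528551 failed the threshold without wt DFL replicate 1, wt DFL replicate 2, 542 DFL replicate 1 or any 1 of the 4 FB libraries. Without centring 2 regions of the locus were higher and 1 lower, and with quantile normalization 4 were higher and 2 lower. The 5 include start sites of the neighbour Fancc at 76.5 and 142 kb. At chr13:63567684-63568355, within Ptch1 in an exon of the transcript A930032L01Rik, fold was higher in DFL by 0.50 ± 0.13 (SE) (adjusted p = 0.00741), but mean tags per M were not. Sufu, which holds Gli proteins in the cytoplasm, had no difference at its start, a region shared with Actr1a. Its neighbour's start site, Mfsd13a at chr19:46356503-46357380, was higher in FB, with DFL minus FB at -0.69 ± 0.10 (SE) (adjusted p = 0.000107). Within Sufu, the region with its summit at 46422755 was higher in DFL, by 0.98 ± 0.19 (SE) (adjusted p = 0.0011). At the Sufu locus 3 regions were higher and 3 lower in DFL than FB, and 4 and 2 in PFL, some lost in alternative fits. In Boc, the intronic region chr16:44530098-44531556, 27.9 kb into the gene, was higher in FB, 11.9 to 12.98 against 5.81 to 8.37 in DFL and 5.60 to 8.38 in PFL. DFL minus FB was -0.67 ± 0.11 (SE) (adjusted p = 0.000302). The Boc locus had 1 region higher and 1 lower in DFL than FB, and 3 higher and 2 lower in PFL, some lost in alternative fits. Among the 3, the region with its summit at 44565517 was higher by 0.75 ± 0.16 (SE) (adjusted p = 0.00271). Gli1 had 10 regions called in all 12 libraries, 8 of them over start sites of its crowded neighbourhood, and 2 were higher in DFL than FB and none lower. Both calls were lost without wt FB replicate 2, where no region of the locus passed in either direction, and without centring none was higher and 2 were lower. Smo had 6, with its own start the 1 that rose in DFL, and Hhip had its start site alone.

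Tags per M at the summit were set beside fold for called regions in which tags could be recovered in all 8 libraries. The tags come from the fold and p value of the same summits, and only called regions entered, so this is no independent check. Regions not called by fold could differ in tags, as at the second Ptch1 start, with 4.05 ± 0.470 in DFL and 7.11 ± 0.722 in FB (SD, n = 4). Of 17 regions with higher fold in DFL than FB, 15 also had the higher mean of tags per M, and of 12 with higher fold in FB all 12. For PFL it was 18 of 22 and 11 of 12. The exceptions were the A930032L01Rik exon within Ptch1 and the start site of Fbxl15 and Psd near Sufu in both comparisons, and for PFL also the Gli3 intron at 162 kb, an intergenic region 3′ of Gli3 and an exon of Ptch1 at chr13:63524908-63526233.

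Between DFL and PFL few regions differed in height. Of the 89, 2 were higher in DFL, against 3.84% of all regions tested, and 3 were higher in PFL, against 3.46%. The Gli3 intron region chr13:15624251-15625275, 162 kb into the gene, had a fold of 8.49 and 8.81 in wt PFL and 6.21 and 8.21 in 542 PFL against 4.96 and 3.63 in wt DFL and 3.99 and 3.05 in 542 DFL. All PFL values were above all DFL values, and FB ranged from 5.74 to 6.23. DFL minus PFL was -1.09 ± 0.16 (SE) (adjusted p = 0.00159) and stayed past the threshold in all 17 alternative fits of scaling, value, block and left-out libraries. Tags per M were 1.73 ± 0.282 in PFL and 0.650 ± 0.117 in DFL (SD, n = 4).

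In the other direction, chr13:63627102-63628206, 53.8 kb upstream of Ptch1 in an exon of the transcript Gm30709, had a fold of 13.6 and 9.60 in wt DFL and 14.4 and 13.3 in 542 DFL against 5.95 and 5.43 in wt PFL and 7.33 and 6.99 in 542 PFL. DFL lay above PFL without overlap, by 0.91 ± 0.13 (SE) (adjusted p = 0.00120), also in all 17 alternatives, and within each genotype the difference was 0.92 in wt and 0.91 in 542. FB ranged from 7.87 to 10.2 and overlapped DFL. The remaining calls were close to the threshold. A Gli3 exon region 252 kb into the gene (-0.53 ± 0.15 (SE), adjusted p = 0.0420) was past it in 5 of 17 alternatives, with adjusted p up to 0.157, and was lost with the replicate block (adjusted p = 0.0541). The region chr19:46517835-46518867 between Sufu and Trim8 (-0.58 ± 0.16 (SE), adjusted p = 0.0412) was past it in 6 of 17, with adjusted p up to 0.168. Both were lost without wt DFL replicate 1, 542 DFL replicate 2, wt PFL replicate 2, 542 PFL replicate 1 or either 542 FB replicate.

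Regions that were called in only some tissues were compared through the 50000 strongest regions of each library, so that the lists had equal length. Of the 225 regions near the 9 genes in a DFL or FB list, 31 were in all 4 DFL lists and no FB list, against 10.8% of all such regions, and 23 in all 4 FB lists and no DFL list, against 11.5%. For PFL and FB, 23 of 230 were in PFL alone, against 10.9%, and 24 in FB alone, against 12.1%. Between the limb tissues, 8 of 209 were in DFL and no PFL list, against 3.28%, and 3 in PFL and no DFL list, against 2.61%. Absence from a list is not absence of a region. Of the 31, 18 had no FB region at any rank, 10 had one in 1 to 3 FB libraries and 3 in all 4.

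The genes differed in these counts. Cdon had 9 of the 31 DFL regions and 1 of the 23 FB regions, and Gli2 had 6 and 1. Ptch1 had 1 of the 31 and 6 of the 23. Gli3 had 9 and 7, Hhip 3 and 3, Boc 1 and 1, and Smo and Sufu 1 and 2 each, while Gli1 had none. Of the 31 and 23, a start site held 1 and 2. These counts were not tested between genes, whose loci held unlike numbers of listed regions. In at least 1 of the 12 lists were 47 regions at Gli3, 39 at Cdon, 38 at Gli2, 30 at Boc and 28 at Sufu. Ptch1 had 26, Hhip 19, Smo 17 and Gli1 15.

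**Figure D4:**
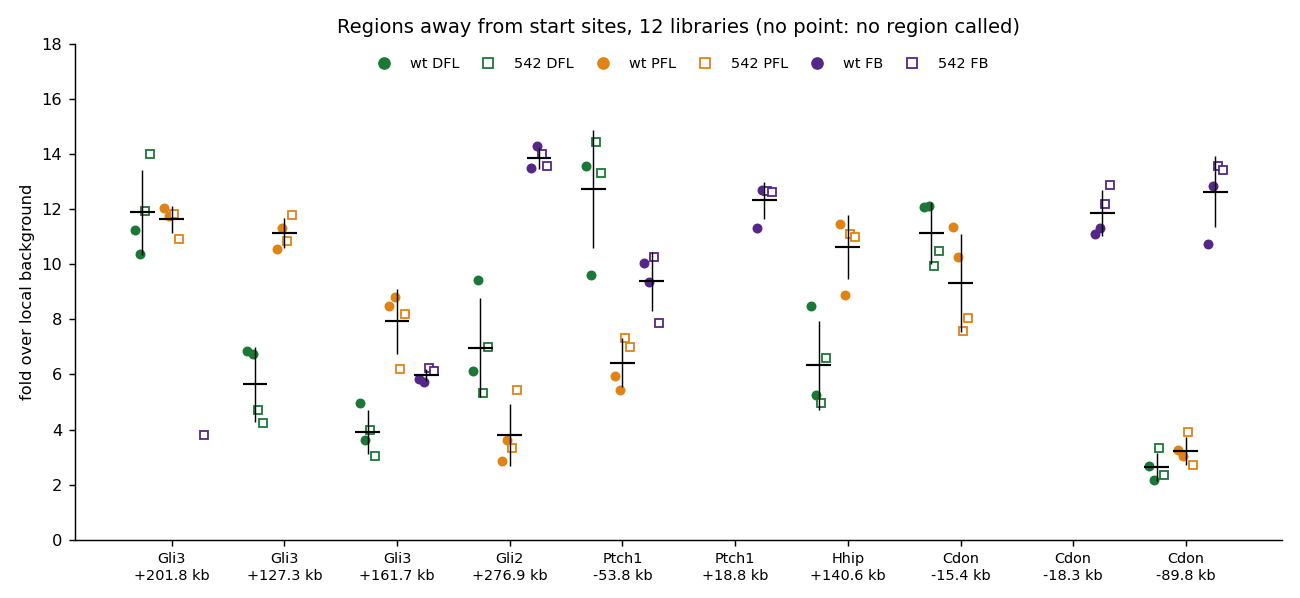
Fold over local background of 10 regions away from the start sites of their genes (x axis, gene and distance in kb of the summit from its first start along transcription) in the 12 libraries, with filled circles for wt, open squares for 542, black lines for the mean and bars for the SD where all 4 libraries of a tissue had the region. No point means that no region was called, as for Ptch1 at 18.8 kb and Cdon at 18.3 kb upstream in the 8 limb libraries.

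Ptch1 carried an intronic region of FB, chr13:63554420-63555300, 18.8 kb into the gene. Its fold was 11.3 and 12.7 in wt FB and 12.7 and 12.6 in 542 FB, and no region was called there in any of the 8 limb libraries or in the earlier wt DFL sample. Its summit had 5.56 ± 0.692 tags per M (SD, n = 4). Cdon had such a region too, chr9:35402409-35403215, 18.3 kb upstream, with 11.1 and 11.3 in wt FB and 12.2 and 12.9 in 542 FB and none in limb. Close to it, 15.4 kb upstream of the gene, chr9:35405070-35406162 was a region of limb alone, with 12.1 and 12.1 in wt DFL and 9.92 and 10.5 in 542 DFL and 11.3 and 10.3 in wt PFL and 7.59 and 8.06 in 542 PFL and no FB region.

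The windows of these FB regions are shown because both hold TAATTA, a word of LIM and Dlx homeodomain proteins, in capitals, together with that of the limb region 3′ of Gli2, which holds CAATAAA (HOX13) and TGACAG (Meis), and that of the Gli3 intron region that was taller in PFL, which holds CAGATGG (proneural E-box) in reverse. All 6 words, the GLI words included, were looked for on both strands of the same 300 bases.
Ptch1 intron, FB, chr13:63554650-63554949: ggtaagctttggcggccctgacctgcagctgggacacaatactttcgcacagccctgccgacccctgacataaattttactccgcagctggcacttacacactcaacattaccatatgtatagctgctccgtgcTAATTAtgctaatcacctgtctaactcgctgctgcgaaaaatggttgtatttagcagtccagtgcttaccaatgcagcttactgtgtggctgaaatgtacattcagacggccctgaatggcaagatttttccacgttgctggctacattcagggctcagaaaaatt
Cdon upstream, FB, chr9:35402684-35402983: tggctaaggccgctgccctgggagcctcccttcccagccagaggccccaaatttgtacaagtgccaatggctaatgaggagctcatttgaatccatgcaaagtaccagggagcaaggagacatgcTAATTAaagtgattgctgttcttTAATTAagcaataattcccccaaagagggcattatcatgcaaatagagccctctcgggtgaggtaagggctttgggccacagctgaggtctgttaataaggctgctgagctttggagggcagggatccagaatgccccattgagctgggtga
Gli2 3′ side, limb, chr1:118825527-118825826: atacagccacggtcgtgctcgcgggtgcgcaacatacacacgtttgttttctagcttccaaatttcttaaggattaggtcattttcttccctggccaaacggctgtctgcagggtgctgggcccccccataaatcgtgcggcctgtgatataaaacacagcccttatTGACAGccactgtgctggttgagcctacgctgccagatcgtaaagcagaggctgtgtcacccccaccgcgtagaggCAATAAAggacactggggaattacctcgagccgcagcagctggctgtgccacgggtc
Gli3 intron, PFL, chr13:15624742-15625041: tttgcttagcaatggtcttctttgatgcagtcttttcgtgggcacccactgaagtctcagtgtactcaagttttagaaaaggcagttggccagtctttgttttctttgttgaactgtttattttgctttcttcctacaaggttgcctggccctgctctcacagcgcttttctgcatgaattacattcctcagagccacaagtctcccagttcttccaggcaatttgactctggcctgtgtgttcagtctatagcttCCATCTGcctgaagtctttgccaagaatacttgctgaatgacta
These words are common. TAATTA was in 14.2% of all regions and 12.7% of the 480, CAATAAA in 7.49% and 7.92%, TGACAG in 23.1% and 20.2%, and CAGATGG in 9.06% and 8.96%.

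In Gli3 an intronic region at 202 kb, chr13:15664325-15665241, was shared by both limb tissues. Its fold was 11.2 and 10.4 in wt DFL and 11.9 and 14.0 in 542 DFL, and 12.0 and 11.8 in wt PFL and 11.8 and 10.9 in 542 PFL. One FB library, 542 FB replicate 1, had a region there, at 3.80, and the other three had none. At 127 kb, chr13:15589910-15590880 had 10.6 and 11.3 in wt PFL and 10.9 and 11.8 in 542 PFL and 6.87 and 6.73 in wt DFL and 4.73 and 4.22 in 542 DFL, with no FB region. PFL lay above DFL in each library, but the region was not tested because it was not called in all 12. Upstream of Ptch1, at 69.2 kb, chr13:63641615-63643770 had a fold of 10.7 and 12.6 in wt DFL and 10.97 and 12.3 in 542 DFL, 10.1 and 6.84 in wt PFL and 7.64 and 6.55 in 542 PFL, and 4.67, 3.69 and 3.80 in 3 FB libraries, below the 50000 strongest.

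Hhip, the ligand-binding inhibitor, had limb regions 3′ of the gene. At chr8:79916967-79917833, 141 kb from the start, the fold was 11.5 and 8.89 in wt PFL and 11.1 and 10.98 in 542 PFL, and 8.50 and 5.25 in wt DFL and 4.98 and 6.61 in 542 DFL, with none called in FB. Among the 12 compared libraries PFL values lay above DFL values in this region too. The earlier wt DFL sample, however, had 17.2 there, above every PFL value. In the same intergenic stretch, chr8:79872450-79873761 had 7.98 and 8.26 in wt DFL and 4.79 and 6.29 in 542 DFL, 7.16 and 7.19 in wt PFL and 8.95 and 8.78 in 542 PFL, and 4.20, 4.82 and 2.62 in 3 of the 4 FB libraries.

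Among the regions in one limb tissue's lists only, the highest by fold were low. In DFL and no PFL list were 2 Gli3 introns at 32.8 and 134 kb and a Gli2 exon region at 51.7 kb, chr1:119001346-119002292, with 4.73 and 6.26 in wt DFL and 6.99 and 6.08 in 542 DFL, while 2 of the 4 PFL libraries had it at 2.42 and 2.61. In PFL and no DFL list were an intron of the Ptch1 neighbour Fancc, chr13:63468837-63469571, with 6.27 and 7.09 in wt PFL and 7.72 and 7.99 in 542 PFL, a Cdon upstream region at 51.8 kb with 5.66 and 4.29 in wt PFL and 5.99 and 7.69 in 542 PFL, and a Gli2 intron at 125 kb with 4.71 and 5.38 in wt PFL and 4.96 and 6.39 in 542 PFL. Near Smo, an intron of Ahcyl2 at chr6:29814274-29815368 was in FB lists alone, with 11.7 and 12.8 in wt FB and 10.2 and 11.7 in 542 FB, while 1 DFL and 2 PFL libraries had it at 2.98 to 4.37.

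The number of strong regions per locus gave the same tissues another reading. Over 17643 loci of protein-coding genes, 36.5% differed between DFL and FB and 38.4% between PFL and FB in log2 of the number plus 1. Of the 9 loci 6 and 4 did. Cdon had 21, 22, 22 and 23 regions in the DFL libraries, and PFL libraries had 25, 23, 21 and 26, while those of FB had 16, 15, 16 and 17, with PFL minus FB at 0.54 ± 0.07 (SE), adjusted p = 0.00110. At Gli2 the DFL libraries had 22, 21, 22 and 20, those of PFL 21, 20, 20 and 23 and those of FB 16, 15, 14 and 15, with DFL minus FB at 0.48 ± 0.06 (SE), adjusted p = 0.000902. Hhip had few, with 8, 6, 7 and 7 for DFL, 9, 9, 8 and 11 for PFL and 5, 4, 4 and 4 for FB, and PFL minus FB at 0.96 ± 0.12 (SE), adjusted p = 0.000961.

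At these 3 loci every limb library had more regions than any FB library. Sufu went the other way, with 22, 21, 22 and 22 in FB against 18, 17, 15 and 19 in DFL, at -0.32 ± 0.07 (SE), adjusted p = 0.0129. Ptch1 and Gli1 passed for DFL alone, Ptch1 lower (-0.32 ± 0.09 (SE), adjusted p = 0.0313) and Gli1 higher (0.19 ± 0.06 (SE), adjusted p = 0.0332), and their counts overlapped between tissues. Between DFL and PFL none of the 9 loci passed, against 6.33% of all. Gli3 came to 25, 23, 19 and 23 in DFL and 19, 19, 20 and 15 in PFL. Of 47 loci of the other pathway genes, 11 had more and 14 fewer regions in DFL than FB, the Shh locus among the latter. The Disp1 locus was among the 11, at 0.45 ± 0.12 (SE), adjusted p = 0.0228 (limma). Its start site had gone the other way, with lower fold in DFL than FB.

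**Figure D5:**
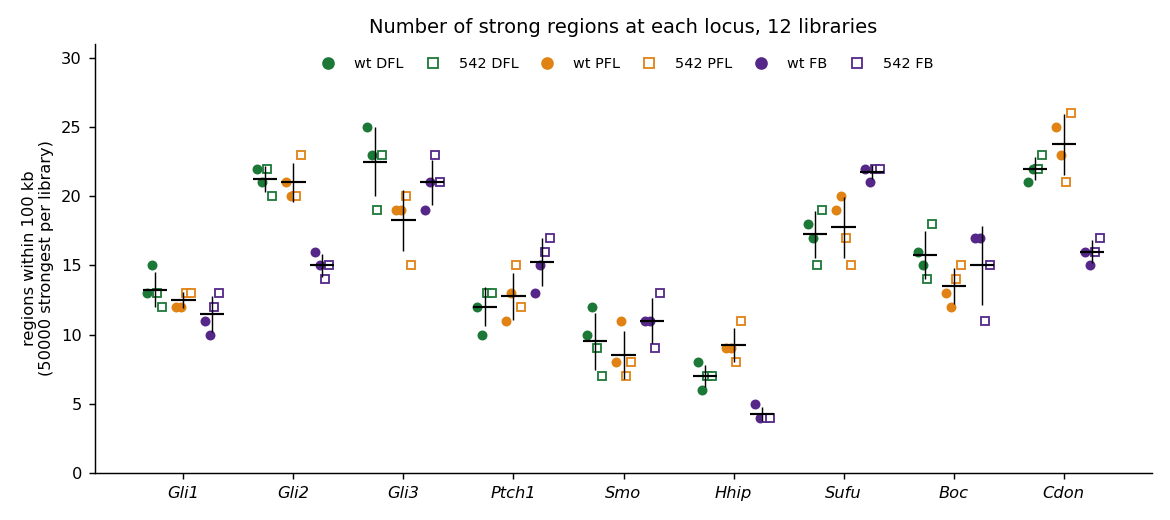
Number of regions within 100 kb of each of the 9 genes among the 50000 strongest of a library (y axis) in the 12 libraries, with filled circles for wt, open squares for 542, black lines for the mean and bars for the SD of the 4 libraries of a tissue. FB lies apart from limb at Gli2 (14 to 16), Hhip (4 or 5) and Cdon (15 to 17).

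Allele 542 carries its insertion on chromosome 2, away from all 9 genes, and was compared with wt to ask whether chromatin at these loci changed with it. Of the 89 regions none was higher in 542, against 0.429% of all regions tested, and none lower, against 0.277%, by limma over the 3 tissues. At an unadjusted p under 0.05 there were 10 higher and 3 lower, but the share of all regions at that threshold was not counted. These 2 numbers thus have no background to be read against. The smallest adjusted p belonged to the Gli3 region chr13:15741393-15742414, with 542 minus wt at -0.43 ± 0.11 (SE) (adjusted p = 0.0860), and to the Boc intron region above, at 0.35 ± 0.09 (SE) (adjusted p = 0.0956). Without 542 PFL replicate 1, a single region passed over the 3 tissues, the limb-high Gli3 region 67.9 kb upstream (adjusted p = 0.0422).

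Within a tissue, none of the 89 differed between 542 and wt in DFL (0.0999% of all), in PFL (0.0814%) or in FB (0.0740%), where at an unadjusted p under 0.05 DFL had 4 higher and 9 lower, PFL 9 and 2, and FB 2 and 3. The difference between 542 and wt was tested between tissues as well. No region of the 89 passed. Of all regions 0% passed between DFL and PFL, 0% between DFL and FB and 0.00370% between PFL and FB. At an unadjusted p under 0.05, 1 of the 89 was higher and 6 lower, then 4 and 5, and 4 and 1, in that order. The share of all regions at the unadjusted threshold was not counted, here or within a tissue. The smallest adjusted p of these tests belonged to the Gli3 upstream region chr13:15426655-15427481, 36.1 kb from the start. Its fold was 10.3 and 12.7 in wt DFL and 6.08 and 7.55 in 542 DFL, 12.2 and 12.4 in wt PFL and 8.51 and 5.19 in 542 PFL, and 4.79 and 3.40 in wt FB and 6.08 and 4.77 in 542 FB. The wt values lay above those of 542 in both limb tissues and overlapped them in FB, and the difference of differences between PFL and FB was -1.30 ± 0.34 (SE) (adjusted p = 0.316), which did not pass with 2 libraries per group. Depth ran with genotype in limb too. It was 44.1 and 54.5 M tags in wt against 40.2 and 41.4 M in 542 DFL, and 48.8 and 52.7 M against 37.5 and 37.9 M in PFL. In FB the depths overlapped, and the part of depth was not tested.

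In the lists of the 50000 strongest, none of 259 regions was in all 6 wt and no 542 list (0.0133% of all) or in all 6 542 and no wt list (0.0152%). The number of regions per locus differed at none of the 9 genes (0.385% of all loci). All 9 start sites stayed within 0.08 of 0 on the log2 scale between genotypes, the adjusted p values from 0.532 to 0.993.

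Last, the pattern of a start site over the 12 libraries was compared among 12946 start-site regions of protein-coding genes. The most similar to Gli1 by Pearson's r of centred log2 fold were Ist1 (0.891), Cck (0.883) and Ankrd52 (0.879). For Ptch1 they were Tacc1 (0.904), Mmd (0.895) and Sbf1 (0.889), and for Hhip Med14 (0.901), Usp18 (0.838) and Wdr5b (0.837). With 12 points that share tissue and depth, and with that many searched, values of this size are a description only. None of the most similar genes was among the 9 or the other pathway genes listed.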

How the data were processed

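ATAC-seq libraries of E12.5 DFL, PFL and FB from wt and 542 embryos were read as the peak tables deposited by the authors, who named cutadapt, Bowtie, Picard, bedtools and MACS2 in their processing notes. Reads of 542 were mapped to a genome that carries the insertion, so coordinates on chromosome 2 from 75 Mb on were left out, together with scaffolds. In each deposited table MACS2 gives a score, a fold enrichment over local background (a ratio within 1 library, with no scaling between libraries), a −log10 p and a −log10 q value, and a summit. Regions were called per library, without pooling of replicates, and 1 row stands for each summit.

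Regions of the 12 libraries that overlapped by at least 1 base were joined. Log2 fold, centred on each library's median, was fitted with limma 3.58.1 (R 4.3.3; trended variance, 6 group means) over regions called in all 12 libraries, with Benjamini-Hochberg adjustment over all of them and a threshold of 0.05. This filter leaves out regions absent from a tissue, which were compared by presence among the 50000 strongest regions of each library by q value, and by the number of these within 100 kb of a gene. Tags under a summit were recovered from fold and p value where they came to a whole number within 0.001. This held for 95.8 to 98.8% of the summits checked in a library, which were those listed first. The share was not counted for the regions reported, and at some of them recovery failed in many libraries. At the Cdon start site tags were recovered in 542 DFL replicates 1 and 2 and 542 PFL replicate 2 only. Precision is limited by 2 libraries per group, each from a separate pool of embryos.

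Named were the tallest start-site region of each gene, the next 2 regions per locus by mean fold, up to 4 regions per direction and contrast by adjusted p, up to 3 per presence count by fold, up to 6 with a GLI word, and for likeness 3 genes each for Gli1, Ptch1 and Hhip. Regions named for a direction that tags did not share, and the Gli3 region with the smallest adjusted p between genotypes, were chosen after their values were seen. The 9 genes, the pathway lists and the tests were chosen with earlier results of these data known. Scripts were tested on simulated data. Tables were handled in Python 3.11.15 with pandas 2.3.3 and numpy 2.4.6, and figures drawn with matplotlib 3.10.9. Alternatives were quantile normalization, no centring, percentiles, other filters, list lengths and windows, a replicate block, and leaving out each library.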

Additional observations from a re-analysis of the deposited data

Results flagged for a closer look

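In the earlier wt DFL sample, which entered none of the reported comparisons, 41 of its 318 regions near the 9 genes (12.9%) overlapped no region of the 12 libraries. They drew attention as signal in a sample outside the comparisons. Their median fold was 2.57 and the highest was 6.21, at the Hhip locus (chr8:80072309-80072694), and 1 of the 41 was among the 50000 strongest regions of that sample. The sample was also the deepest, at 78.0 M tags, and the part of depth in these regions was not tested. Groups of 2 libraries were too small for a search for outlying samples.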

How the results depend on the processing

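Counts of regions near the 9 genes stayed within 1.5 times of those reported under quantile normalization, a pseudocount of 1, ranking by fold, windows of 500 bases, no filter on loci, a pseudocount of 0.5 and the earlier wt DFL sample added. With all deposited regions in place of the 50000 strongest, 10 regions were in PFL and not DFL, 35 in FB and not DFL, 48 in PFL and not FB, 39 in FB and not PFL, 1 in wt and not 542, and 1 locus differed between genotypes. With 20000, these were 2 for DFL and not PFL, 10 for DFL and not FB, 8 for FB and not DFL, 14 for PFL and not FB and 7 for FB and not PFL, and 2 loci differed between DFL and PFL and 3 between DFL and FB. Without centring, 11 regions were higher in DFL and 26 in FB, 14 in PFL and 26 in FB, and 1 in PFL against DFL, as also with percentiles (1). With regions called in at least 1 library per group, 7 were higher in DFL than PFL and 32 in DFL than FB. With a window of 50 kb, which holds fewer regions, 0 were higher in DFL than PFL, 10 in DFL than FB, 9 in FB than DFL, 15 in PFL than FB and 7 in FB than PFL. The causes of the other changes were not tested.

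Leaving out each library in turn gave 8 to 10 regions in DFL and not PFL, 3 to 6 in PFL and not DFL (6 without 542 PFL replicate 1), 31 to 36 in DFL and not FB, 23 to 27 in FB and not DFL, 23 to 29 in PFL and not FB, 24 to 28 in FB and not PFL, and 0 to 0 between genotypes. Higher fold was found for 1 to 5 regions in DFL than PFL (1 without wt DFL replicate 2, 542 DFL replicate 2 or wt PFL replicate 1, 5 without 542 PFL replicate 2), 1 to 2 in PFL than DFL (1 without wt DFL replicate 1, 542 DFL replicate 2, wt PFL replicate 2, 542 PFL replicate 1 or either 542 FB replicate), 14 to 22 in DFL than FB, 10 to 15 in FB than DFL, 23 to 27 in PFL than FB, 9 to 13 in FB than PFL, 0 to 1 in 542 than wt, and 0 to 0 in wt than 542. Within tissues 0 to 1 differed between genotypes in PFL (a region of the Cdon locus, without 542 PFL replicate 1) and 0 to 0 in DFL and FB, fits chosen after seeing the data, and loci came to 0 to 0, 4 to 6, 3 to 6 and 0 to 0 for DFL against PFL, DFL against FB, PFL against FB and genotype. With the replicate block 2 regions were higher in DFL and 2 in PFL, 20 in DFL and 14 in FB, and 26 in PFL and 14 in FB. Equal replicate numbers did not pair the samples, since correlations of deviations ran from -0.04 to 0.02 over 15 pairs of groups.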
